A study of Homo sapiens with 12 samples.

Results

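FoxK1 binding sites that 2 of 3 replicate numbers share in both conditions, and that the third lacks in both, are described here. FoxK1 was immunoprecipitated from HepG2, a human hepatocellular carcinoma line, and the DNA was sequenced to give a list of peaks for each library. Insulin replicates 1 to 3 came from cells given 100 nM insulin for 20 min, and untreated replicates 1 to 3 from cells given none. Before that, the cells of all 6 libraries had spent 16 h in medium without serum. HepG2 is one cancer-derived line grown in culture, and peak lists hold no RNA, so its hepatocyte markers could not be checked. Peaks that shared at least 1 bp were merged into 68127 regions on build hg19. The sites described here are the 4610 regions with a peak in insulin replicates 1 and 2 and untreated replicates 1 and 2, and with no peak in either replicate 3 library. They made up 6.77% of all regions and 18.3% of the 25150 regions called in those 4 libraries. The choice used the peak calls themselves, so strength, width and number are given as descriptions with no test.

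FoxK1 is a forkhead transcription factor, a protein with a winged-helix domain that binds DNA at short sequences related to the core of the forkhead motif. It is known to act largely as a repressor, together with the SIN3 corepressor complex, and to move between cytoplasm and nucleus in response to insulin and nutrient signals. In liver cells it is known for control of metabolism, growth and autophagy genes, partly in opposition to FoxO factors. HepG2 is also known to carry extra copies of several chromosomes, among them 2, 14, 16, 17 and 20. No sequence or gene annotation of hg19 was used here, so sites are given by position only.

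The replicate 3 libraries stood apart before any site was chosen. They held 27503 peaks (insulin) and 26082 peaks (untreated), against 31668 to 48208 in the other 4 libraries. The number of DNA fragments at each summit, solved from the fold and −log10 p of each peak, had a median of 21 and 22 in these lists, against 27 to 43 in the others. The lowest background value of the list was shared by 29.7% (insulin) and 33.2% (untreated) of their peaks, where the other lists had 0.622% to 1.29%. Total reads per library are not known from peak lists. The labels do not state that replicates were separate cultures, so spreads between libraries may be technical.

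Of the 25150 regions called in replicates 1 and 2 of both conditions, 15887 (63.2%) were also in both replicate 3 libraries. A further 2809 (11.2%) were in insulin replicate 3 but not in untreated replicate 3, and 1844 (7.33%) in untreated replicate 3 but not in insulin replicate 3. The 4610 sites in neither were therefore more numerous than either set with a single replicate 3 peak. Peaks in these sites made up 9.86% and 10.3% of the lists of insulin replicates 1 and 2, and 10.5% and 14.7% of those of untreated replicates 1 and 2. The number depended on the libraries: 7432 regions met the rule without insulin replicate 3, 8649 without untreated replicate 2, and 1818 when every list was reduced to its 26082 strongest peaks.

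The sites were of middling strength in their own lists. Strength was read as the within-list percentile of the −log10 q, where 100 is the strongest peak of a list. The median site stood at a percentile of 50.9 in insulin replicate 1, 52.0 in insulin replicate 2, 49.9 in untreated replicate 1 and 36.4 in untreated replicate 2. The first 3 libraries were alike, and untreated replicate 2, the shortest of the 4 lists, was lower. Regions called in all 6 libraries stood at 81.7, 80.7, 79.97 and 71.9 in the same order. The mean percentile over the 4 libraries had a median of 46.0 for the sites, with quartiles of 33.8 and 58.2 and a range from 2.37 to 94.3. Its median was 55.8 for regions with a peak in insulin replicate 3 as well, 52.5 with untreated replicate 3 as well, and 77.2 for regions called in all 6. Few of the sites were near the top: 99 of 4610 (2.15%) had a mean percentile of at least 80, against 44.8% of the regions called in all 6. The bottom of the lists held more of them, with a mean percentile under 20 at 288 sites (6.25%), against 0.434% of the regions called in all 6.

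To compare regions of like strength, the 25150 regions were ranked by −log10 q in each of the 4 libraries, and the mean rank was divided into 5 groups of 5030. In the weakest group 2198 (43.7%) were absent from both replicate 3 lists and 1364 (27.1%) were in both. In the middle group 727 (14.5%) were absent from both. In the strongest group 24 (0.477%) were absent from both and 4911 (97.6%) were in both. Each group from weak to strong held fewer of the sites, as the plot of replicate 3 calls by strength shows.

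**Figure D1:**
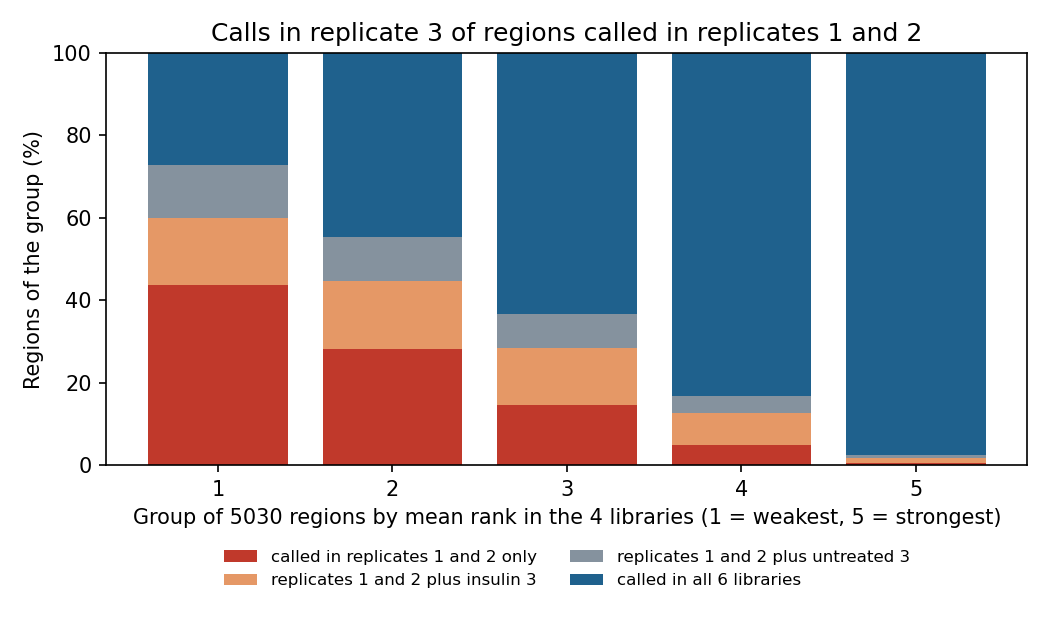
Stacked bars give, for 5 groups of 5030 regions ordered by mean rank of −log10 q in the replicate 1 and 2 libraries, the percentage with a peak in neither, one or both replicate 3 libraries. The share in neither was 43.7% in the weakest group and 0.477% in the strongest.

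Values on either side of the calling threshold were as follows. The lowest deposited −log10 p of every list was just above 3, and 55 of the sites had a peak with −log10 p under 3.5 in at least 1 of the 4 libraries. Their median mean percentile was 21.6. Just outside the rule, 33 regions had only a peak under 3.5 in insulin replicate 3 and 25 only one in untreated replicate 3, with median mean percentiles of 42.8 and 38.9. Their median summits had 12 and 13 fragments in those replicate 3 libraries, where the lowest of any peak were 9 and 10. On the other side, 4022 regions were called in the other 3 libraries but not in untreated replicate 2, and in neither replicate 3 library. The same count was 677 for insulin replicate 1, 331 for insulin replicate 2 and 587 for untreated replicate 1. A separate replicate 3 peak lay within 100 bp of 3 of the sites, within 500 bp of 94 (2.04%) and within 1000 bp of 305 (6.62%). A replicate 3 peak that shared 1 bp with a region took it out of the sites, so these counts are in part fixed by the rule.

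The peaks at these sites were narrow. The median peak was 410 bp wide in insulin replicate 1, 530 bp in insulin replicate 2, 485 bp in untreated replicate 1 and 421 bp in untreated replicate 2. In regions called in all 6 libraries the same lists had medians of 702, 892, 780 and 679 bp, so the sites were narrower in each of the 4 libraries. The merged sites spanned 641 bp at the median, with quartiles of 531 and 836 bp and a range from 334 to 3520 bp. Regions called in all 6 spanned 1092 bp, but these merge peaks of more lists, so the width within each list is the fairer measure. Only 203 sites (4.40%) held 2 or more peaks of any of the 4 lists, against 14.6% of the regions called in all 6.

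The peaks were narrower at like strength too. In each of the 5 strength groups and each of the 4 libraries, the median peak at these sites was between 0.598 and 0.771 times as wide as in regions called in all 6. In the weakest group the sites had medians of 393, 503, 455.5 and 410 bp in insulin replicates 1 and 2 and untreated replicates 1 and 2. Regions called in all 6 had 569, 753, 610 and 531.5 bp there. In the middle group the medians were 424, 552, 522 and 435 bp for the sites, and 658, 837, 736 and 623 bp for regions called in all 6. The sites had the lower median in each library in both groups. Regions with a single replicate 3 peak were closer to the sites. In the middle group they had 499.5, 636, 582 and 483 bp with insulin replicate 3, and 480, 626.5, 561.5 and 491 bp with untreated replicate 3. The strongest group holds only 24 sites, and strength was not matched there. Its ratios of width were 0.598 to 0.660, and the lowest in the other groups was 0.644.

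The sites also stood on a lower background. MACS2's expected number of fragments at the summit had a median of 3.46, 5.62, 7.90 and 6.39 at these sites in insulin replicates 1 and 2 and untreated replicates 1 and 2. It was 5.03, 8.0, 12.9 and 9.15 in regions called in all 6. Within strength groups the ratio of the medians was between 0.664 and 0.884. Here too regions with a single replicate 3 peak were closer: in the middle group of insulin replicate 1 the background was 3.56 at the sites, 3.90 with insulin replicate 3, 3.83 with untreated replicate 3 and 4.88 in all 6. At an equal −log10 q a lower background goes with fewer fragments by arithmetic. Within strength groups the sites had between 0.659 and 0.907 times the fragments of regions called in all 6. The 0.659 was in the strongest group, where strength was not matched, and the lowest in the other groups was 0.778. Over all sites the median summit held 26, 38, 41 and 27 fragments, with a fold enrichment over background of 6.06, 5.85, 4.72 and 3.81. Fragments were higher in insulin replicate 2 and untreated replicate 1 than in the other libraries. Background differed between the libraries too, and their read depth is not known.

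**Figure D2:**
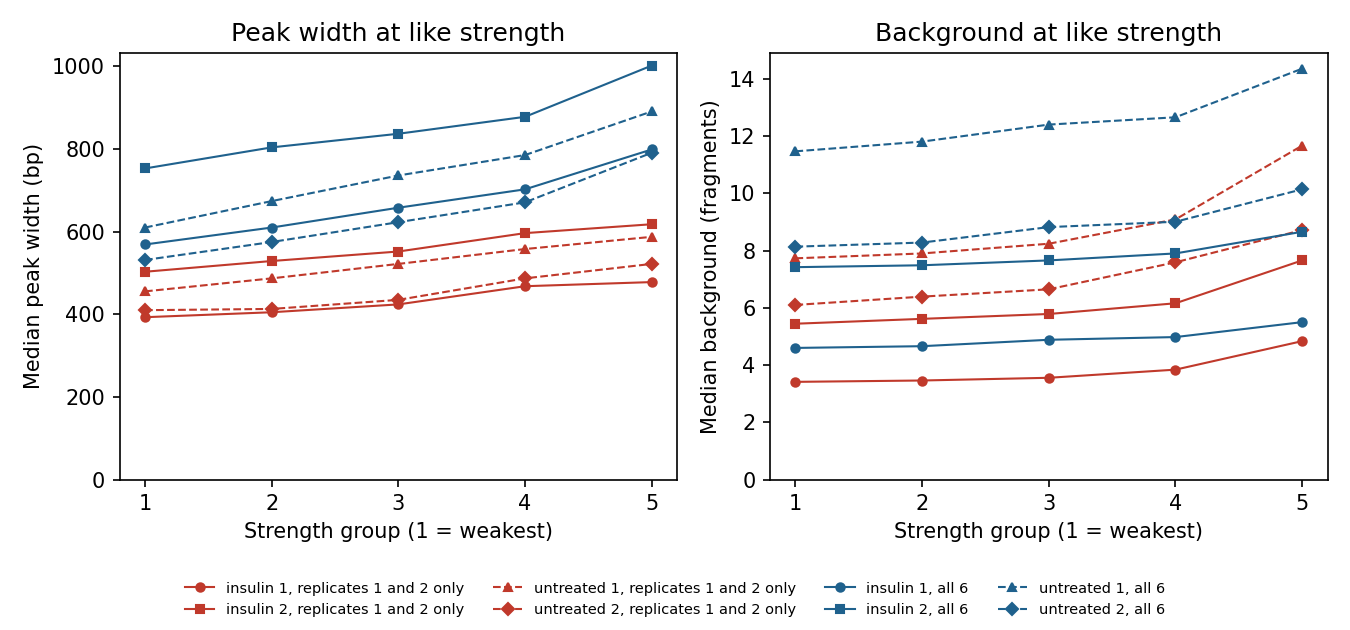
Median peak width in bp (left) and median background at the summit in fragments (right) are plotted against strength group for sites in replicates 1 and 2 only and for regions called in all 6, 1 line per library. In every group the width of each library's peaks at the sites was at most 0.771 times that in regions called in all 6.

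The 4 libraries placed their summits close together at these sites. Over the 6 pairs of libraries the summits were 29 to 37 bp apart at the median, and 59.98% to 70.7% of them lay within 50 bp of each other. Insulin replicate 1 and insulin replicate 2 were 31 bp apart at the median and untreated replicates 1 and 2 were 37 bp apart. The same-numbered pairs across treatments were 29 bp and 36 bp apart, so pairs of one treatment were no closer than pairs of different treatment. Pairs with untreated replicate 2 had the larger distances, 36 to 37 bp. In regions called in all 6 the range was 24 to 30 bp. All 4 summits fell within 72 bp at the median site, with quartiles of 41 and 129 bp, against 58 bp for regions called in all 6.

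The strongest of the sites had high fragment numbers in all 4 libraries. First by mean percentile (94.3) was chromosome 16, 16288582 to 16289192, with 138 and 156 fragments in insulin replicates 1 and 2 and 217 and 108 in untreated replicates 1 and 2. Its folds were 15.3, 10.3, 11.3 and 7.09, its 4 summits lay within 9 bp, and the nearest replicate 3 peak was 44.7 kb away. Chromosome 2, 242224372 to 242225223, had 107 and 162 fragments after insulin and 155 and 93 without it, with summits within 9 bp. In fragments, neither site had one treatment above the other in every library. In fold, the site on chromosome 2 was higher in both insulin libraries, at 12.6 and 15.0, than in the untreated ones, at 8.39 and 6.41.

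Chromosome 19, 14662142 to 14662735, reached the highest fold of the 10, 26.8 in insulin replicate 1, against 12.7, 10.4 and 10.2 in the others. Chromosome 16, 69854959 to 69855533, had folds of 12.5, 14.3, 9.51 and 10.3 and lay 0.736 kb from a replicate 3 peak. Another 3 sites were on chromosome 20. The one at 31131244 to 31132006 had 117, 186, 157 and 113 fragments and lay 0.76 kb from a region called in all 6. The one at 50360787 to 50361635 had 135, 174, 170 and 93, with summits within 6 bp, and the one at 19883736 to 19884341 had 79, 122, 143 and 74. Untreated replicate 2 had the fewest fragments at each of these 3 sites.

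The remaining 3 of the 10 were on chromosome 22 at 29168375 to 29169368, chromosome 8 at 11722160 to 11722887 and chromosome 14 at 73945304 to 73945908. Their folds lay between 5.39 and 18.5. Across all 10 the mean percentile was at least 89.7, and the merged sites were 575 to 994 bp wide. Regions of this strength were nearly always in replicate 3 as well: 3729 regions called in all 6 had a mean percentile of at least 90, against 9 of the sites.

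**Figure D3:**
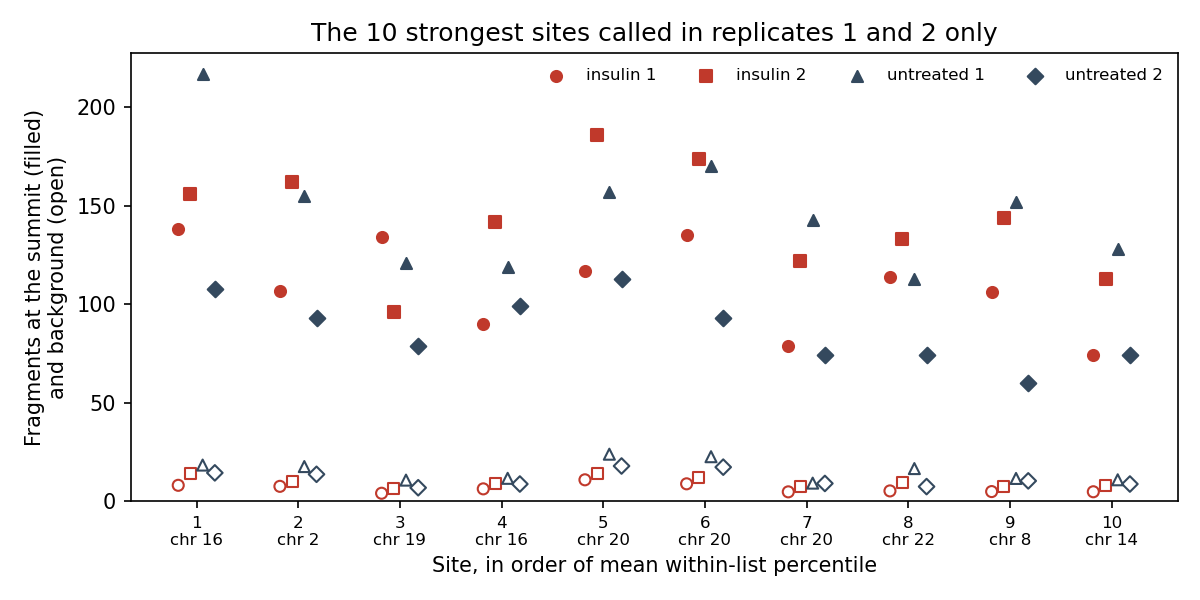
For the 10 sites with the highest mean percentile, in that order, filled symbols give the fragments at the summit and open symbols the background in each of the 4 libraries. Fragments ran from 60 to 217 and background from 4.03 to 23.9.

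The typical site was much weaker. The 5 sites nearest the median mean percentile fell on 5 chromosomes. The site on chromosome 1, 37998116 to 37998743, had 26 and 38 fragments after insulin and 49 and 24 without it, with folds of 5.37, 6.77, 4.61 and 3.52. The one on chromosome X, 51718492 to 51719381, had 23, 24, 31 and 15 fragments over backgrounds of 1.71, 2.72, 4.25 and 2.25. It had fewer fragments than the site on chromosome 1 in every library, over a lower background, and nearly the same mean percentile. Chromosome 9 from 82104531 to 82105020 had 18, 30, 24 and 19 fragments. Chromosome 11 from 34517133 to 34517907 had 29, 28, 42 and 23. On chromosome 6 the site from 144272018 to 144272804 had 20, 32, 29 and 27. In fragments, no treatment was above the other in every library at any of the 5. In fold, both insulin libraries were above both untreated libraries at 4 of the 5, the exception being chromosome 6. They were also above them in the median over all sites. Regions called in all 6 showed this too, with median folds of 10.2 and 9.33 after insulin and 6.51 and 5.14 without it. Raw fold was thus higher in the insulin libraries beyond these sites. Ranked by fold among the regions called in all 4 libraries, the sites were lower after insulin, as given below.

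The sites were spread over all of chromosomes 1 to 22, X and Y, but not evenly. Most chromosomes were close to the overall share of 18.3%. The share of regions called in the 4 libraries that were missing from both replicate 3 lists was lowest on chromosome 6, at 12.8% (192 of 1503, 95% Wilson interval 11.2 to 14.6), and next on chromosome 2, at 15.0% (302 of 2017, 13.5 to 16.6). It was 21.6% on chromosome 7 (266 of 1229, 19.4 to 24.0), 23.2% on chromosome 19 (309 of 1334, 21.0 to 25.5) and 28.3% on chromosome 21 (66 of 233, 22.9 to 34.4). Chromosome X stood well above these at 39.6% (206 of 520, 35.5 to 43.9). The 17 of 27 regions on chromosome Y are few and give 63.0% (44.2 to 78.5). These intervals cover counting error only. Unplaced and alternate contigs held 3 of the sites.

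Chromosome X thus held 4.47% of the sites and 1.13% of the regions called in all 6. Regions on X were weaker, with a median mean rank of 36.5, and weak regions were missing from replicate 3 more often everywhere. Within the weakest strength group 117 of 155 regions on X (75.5%) were absent from both replicate 3 lists, against 42.6% on chromosomes 1 to 22. In the second group the shares were 46.0% (57 of 124) and 27.7%, and in the third 24.1% (27 of 112) and 14.2%. In the fourth they were 6.94% (5 of 72, 95% Wilson interval 3.003 to 15.2) and 4.78%, so X was not clear of the other chromosomes there. In the strongest group X had 0 of 57 (95% Wilson interval 0 to 6.31). The share on X ran from 21.0% with lists of equal length to 61.8% where each library had to cover 50% of a region. Over 13 such settings, applied to this share after seeing the data, it stayed between 1.94 and 2.29 times that on chromosomes 1 to 22, and was 2.22 times in the data as described.

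The background differed on X too. At peaks on X it was 0.506 to 0.536 times the list's median in the replicate 1 and 2 lists, and the lowest background value of the list was that of 89.1% of X peaks in insulin replicate 3 and of 90.8% in untreated replicate 3. On chromosome 21 the values were 0.608 to 0.650 times and 55.9% in both. On chromosome 6 they were 1.18 to 1.28 times, with 18.2% and 21.7% of peaks at the lowest background. Chromosome 19 did not follow this order, with a background of 1.04 to 1.23 times the median and 14.9% and 18.3% of peaks at the lowest value. Across chromosomes 1 to 22 and X (n = 23) the share of sites had a Pearson r of 0.700 with the percentage of insulin replicate 3 peaks at the lowest background and a Spearman rho of 0.0791. Without X and 21 these were -0.0480 and -0.210 (n = 21), so the first rests on those chromosomes. The part of the background in the share on X was not tested.

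**Figure D4:**
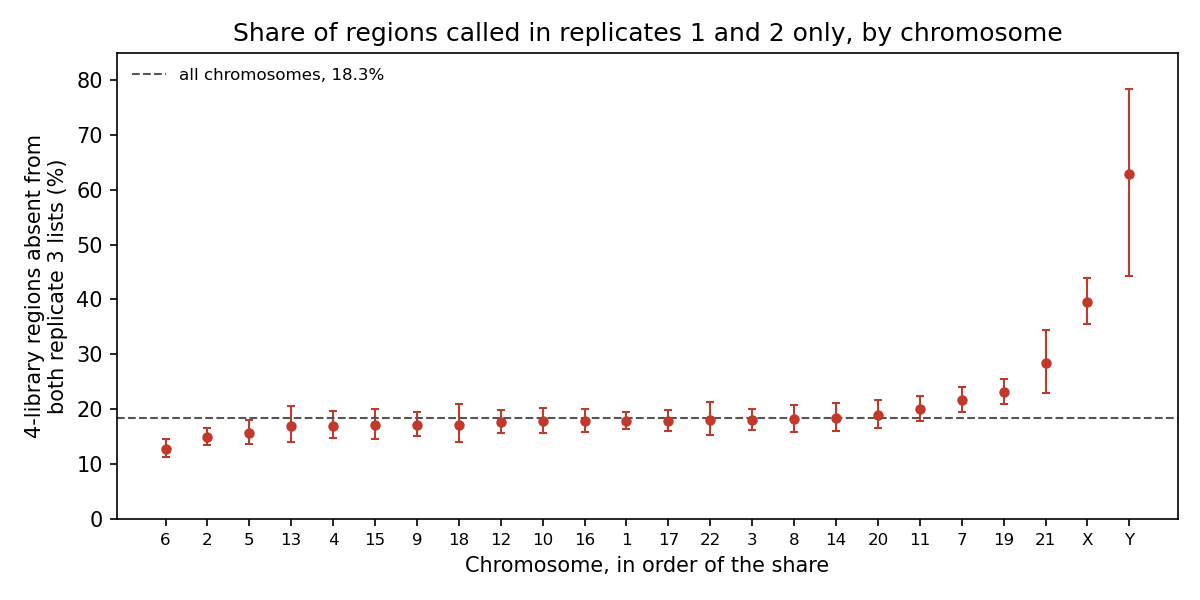
Points give, for each chromosome, the percentage of regions called in all 4 replicate 1 and 2 libraries that were absent from both replicate 3 lists, with 95% Wilson intervals, and the dashed line marks 18.3% for all regions. Most chromosomes lie near the line, chromosome 6 is lowest at 12.8%, and chromosomes 21, X and Y are highest.

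Chromosomes 2, 6, 14, 16, 17 and 20 were picked in earlier work on these data because regions of replicate 3 alone crowd there. They held 1324 of the sites (28.7%), against 34.1% of the regions called in all 6. Per region called in the 4 libraries, 16.4% on these 6 chromosomes and 18.6% on the other autosomes were missing from replicate 3. Within strength groups the order was not the same throughout: 40.3% against 43.5% in the weakest group, 27.8% against 27.6% in the second and 15.1% against 13.8% in the third. In the 2 strongest groups it was 5.51% against 4.42% and 0.601% against 0.405%, so the lower share on these chromosomes was seen in the weakest group and in none of the other 4. In the weakest group the Wilson intervals were 37.8 to 42.9 and 41.9 to 45.2, so they overlapped. Chromosome 6 had 33.1% there (89 of 269). Regions on the 6 chromosomes were also stronger, with median mean ranks of 51.6 to 54.3 by chromosome, against 41.8 to 48.5 on the other autosomes. Weak regions were missing from replicate 3 more often, and the part of strength in the gap over all groups was not tested. Over all groups the share was 12.8% on chromosome 6 and 15.0% on chromosome 2, but 17.8% to 18.9% on chromosomes 14, 16, 17 and 20.

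Over the whole genome the sites lay at distances from shared sites much like those between shared sites, with exceptions on single chromosomes. The median distance from a site to the nearest region called in all 6 was 21.9 kb, with quartiles of 7.17 and 59.6 kb. It was 21.2 kb and 22.9 kb for regions with a peak in insulin or untreated replicate 3 as well, and 20.2 kb from one region called in all 6 to the next. At short range the sites were fewer, with 4.66% within 1 kb of a region called in all 6, against 7.20% of those regions themselves. Within 100 kb the shares were 84.4% and 87.0%. The nearest region of any kind was 4.65 kb away at the median and the nearest other site 75.9 kb. By strength group the median distance of the sites was 22.8, 22.3, 20.8, 17.8 and 19.9 kb from weakest to strongest, and that of regions called in all 6 was 20.2, 20.3, 22.6, 21.4 and 17.9 kb. The classes differed more on some chromosomes: the medians were 26.0 kb for the sites and 14.4 kb for regions called in all 6 on chromosome 6, 28.9 and 18.7 kb on chromosome 8, and 48.3 and 29.4 kb on chromosome 21. On chromosome 4 the order was the reverse, at 26.8 and 38.0 kb. The median for the sites was 55.1 kb where each library had to cover 50% of a region. On chromosome X the distances were longer for both classes, at 71.9 and 78.7 kb.

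**Figure D5:**
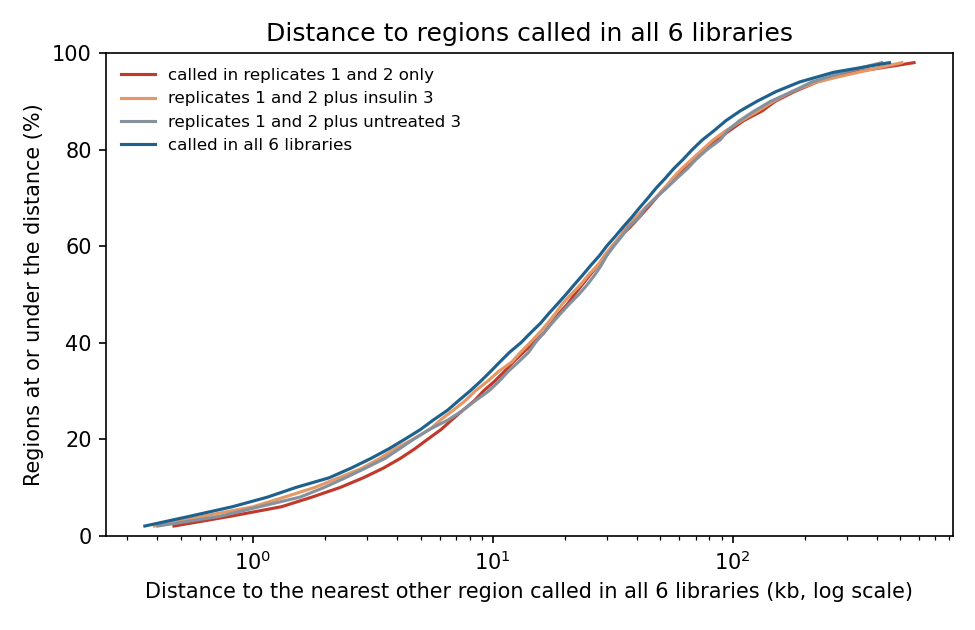
Lines give the cumulative percentage of regions at or under a distance, in kb on a log scale, to the nearest other region called in all 6 libraries, for the sites and for the 3 other classes of region called in replicates 1 and 2. The 4 lines run close together, with medians between 20.2 and 22.9 kb.

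A few of the sites stood far from any shared region. At more than 1 Mb were 40 of the 4609 sites with a distance, beside 78 of 15885 regions called in all 6. The same count was 20 of 2808 with insulin replicate 3 as well and 8 of 1844 with untreated replicate 3 as well. Windows of 1 Mb with no region called in all 6 held 127 of the sites, a count not made for the other classes. Among sites with a mean percentile of at least 50, the farthest was chromosome X, 2958872 to 2959555, 6471 kb away, with 22 and 49 fragments after insulin and 41 and 29 without it. Next was chromosome X, 114579206 to 114581673, 3279 kb away, a wide site of 2468 bp whose summits spread over 345 bp. Chromosome 9 had one from 69065174 to 69065635, 2281 kb away with folds of 29.9, 14.01, 5.45 and 7.18, and one from 68726130 to 68726605, 2267 kb away with folds of 25.8, 18.2, 13.8 and 8.93. That part of chromosome 9 is known for near-identical duplicated sequence, in which reads are hard to place uniquely. The fifth was chromosome 14, 84105733 to 84106342, 2104 kb away, with folds of 13.1, 16.0, 10.3 and 8.77, all 4 above the median fold of the sites.

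The sites were thinly scattered along chromosomes. Windows of 1 Mb with any of them numbered 1633, and 605 of these held exactly 1. The fullest window was chromosome 19, 45000001 to 46000000, with 18 sites beside 25 regions called in all 6, in a stretch known to hold the apolipoprotein E and C genes. Chromosome 19, 2000001 to 3000000, followed with 15 beside 28. Tied at 14 were chromosome 11, 65000001 to 66000000, beside 30, and chromosome 20, 32000001 to 33000000, beside 12. The window on chromosome 11 is known to hold the long noncoding RNA genes NEAT1 and MALAT1. These names come from general knowledge of hg19, and whether any site lies in those genes was not determined. On chromosome 20 the sites outnumbered the regions called in all 6, and made up 43.8% of the 32 regions called in the 4 libraries.

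Whether insulin moved these sites relative to other FoxK1 sites was asked over the 4 libraries. The rule requires peaks in both treatments, but the ranks come from the same peaks that it used, so the difference is not independent of it. The rule also bore unequally on the libraries. For want of a peak in untreated replicate 2 alone, 4022 regions were left out, against 331 to 677 for each of the other libraries. Each library ranked the same 25150 regions by −log10 q, as a percentile from 0 to 100. The median site ranked 22.05 and 22.4 in insulin replicates 1 and 2, and 23.9 and 24.5 in untreated replicates 1 and 2. The insulin libraries were both lower and the groups did not overlap. For the insulin libraries this averages 22.2 ± 0.218 (SD, n = 2) and for the untreated ones 24.2 ± 0.408 (SD, n = 2), which differ by -2.02 (two-sided exact permutation p = 0.333, n = 2 each). That is the smallest p that 2 against 2 libraries allow, so the difference cannot pass 0.05 in this design.

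The direction depended on the scale. Ranked by fold enrichment in place of −log10 q, the medians were 25.9 and 27.5 after insulin and 34.4 and 31.7 without it, a difference of -6.38 (two-sided exact permutation p = 0.333, n = 2 each). On the percentile of each whole list it was 8.33, the opposite sign. A shorter list puts the same regions at lower percentiles by arithmetic, and the list of untreated replicate 2 is the shortest of the 4. Regions with a peak in untreated replicate 3 but not insulin replicate 3 showed a difference of -2.13 in the common ranking, those with the reverse 0.731, and those called in all 6 0.578. The ranks of these classes are not independent, since all share 1 ranking.

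Among the 4610 sites, 932 (20.2%) ranked lower in both insulin libraries than in both untreated libraries, where 16.0% of all 25150 regions did. The reverse held for 575 (12.5%), against 17.6% of all regions. So sites lower after insulin were somewhat more frequent than among all regions, and sites higher after insulin less frequent, with no test of either. Regions with a peak in untreated replicate 3 as well had nearly the same shares, 19.3% lower and 13.9% higher after insulin, so the pattern was shared with that class. Single sites reached large differences. Chromosome 20, 3212733 to 3213267, ranked 68.2 and 57.1 after insulin and 27.8 and 6.65 without it, the largest difference upward. Its fragments were 68, 78, 69 and 37, and its background was 6.12 and 9.70 after insulin and 19.4 and 15.4 without it. Chromosome 19, 40449856 to 40450795, ranked 5.20 and 32.3 after insulin and 64.0 and 68.8 without it, the largest difference downward, with 18, 44, 67 and 46 fragments. A single region with 2 libraries against 2 has no p under 0.333, so neither can be called changed.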

How the data were processed

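Peak lists of 6 immunoprecipitated libraries were used; the 6 inputs were not analysed here. The submitters' processing notes name fastp, Bowtie2, SAMtools, MACS2 and build hg19, without versions or roles. The deposited lists hold, per peak, a fold ratio over background, a −log10 p, a −log10 q, a score (10 times the −log10 p) and the summit, all values of one library. Read depth and the control of each call were not given in the sources used here.

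Peaks were merged at 1 bp or more, and each library's strongest peak by −log10 q stood for a region. Fragments and background at a summit were solved from the deposited fold, as (fragments + 1) over (background + 1), and the deposited −log10 p as a Poisson upper tail. A whole number fitted within 0.0005 (in proportion above 10) for 100% of peaks. A peak counted as at the lowest background where it was within 0.2% of it. For treatment, the exact permutation test (two-sided) ran over the 6 assignments of the 4 libraries.

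Named regions are the 10 with the highest mean percentile, the 5 nearest the median, the 5 farthest from a region called in all 6 (mean percentile at least 50), the 3 fullest windows of 1 Mb, with ties, and the largest change in rank each way. The members, lists and rules were chosen with earlier results of these data known. The planned promoter, motif and gene list steps needed hg19 sequence or annotation and were not run. Merging, the rule and the fragment solution were tested on simulated data. Libraries of one number were treated as unpaired. The deviations of same-numbered libraries correlated at 0.101, 0.0606 and 0.266, and those of pairs with different numbers at -0.210 to 0.122. These values do not settle whether the numbers mark pairs, so the difference with a replicate block is given below too. Python 3.11.15, numpy 2.4.6, pandas 2.3.3, scipy 1.17.1 and matplotlib 3.10.9 were used.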

Additional observations from a re-analysis of the deposited data

How the results depend on the processing

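The number of sites stayed within 1.5 times in 9 of 13 alternatives. It was 5018 to 8649 with each library left out, and 7432 without insulin replicate 3 and 8649 without untreated replicate 2, since a rule over 5 libraries asks for less. It was 1818 with lists of equal length and 2808 with the replicate 1 and 2 lists reduced to the length of untreated replicate 2, a setting chosen after seeing the data. The insulin-minus-untreated rank difference kept its sign in 15 of 16 alternatives. Of these, the replicate block gives the same difference by arithmetic, and the setting with chromosomes 1 to 22 and X alone keeps 4590 of the sites. The difference ran from -2.51 to -1.42 over the fits that leave out 1 library. It was 8.33 on whole-list percentiles, which depend on list length. With the replicate block it was -2.02 (exact sign-flip test of n = 2 pairs, two-sided p = 0.5, the lowest such a test can give), from -1.89 for replicate 1 and -2.16 for replicate 2; no call changed. The share on chromosomes 2, 6, 14, 16, 17 and 20 was 28.2% to 28.9% with each library left out, 32.7% with lists of equal length, 30.3% with regions from summits within 100 bp, 30.1% where each library had to cover 50% of a region and 30.6% with the lists reduced to the length of untreated replicate 2. For these shifts the cause was not tested. The median mean percentile ran from 38.3 to 57.5, the median distance to a region called in all 6 from 18.6 to 55.1 kb, and the ratio of peak widths from 0.562 to 0.733 (the last chosen after seeing the data) over 13 alternatives each, the highest each time where libraries had to cover 50% of a region. Leaving out both replicate 3 libraries leaves no rule to apply. Peak lists carry no read totals, so sites weaker than the calling threshold of replicate 3 cannot be told apart from sites without binding there.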

Other observations

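In bins of 10 Mb with at least 40 regions called in the 4 replicate 1 and 2 libraries (226 bins), the percentage absent from both replicate 3 lists had a median of 17.05 and quartiles of 14.5 and 20.7. The bins named here were chosen after their values were seen. The highest was chromosome X, 20000001 to 30000000, with 20 of 43 (46.5%), followed by chromosome X, 100000001 to 110000000, with 17 of 43 (39.5%). Outside X the highest were chromosome 21, 40000001 to 50000000, with 36 of 100 (36.0%), and chromosome 7, 70000001 to 80000000, with 34 of 99 (34.3%). The lowest were chromosome 6, 10000001 to 20000000, with 7 of 97 (7.22%), and chromosome 6, 1 to 10000000, with 10 of 121 (8.26%).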
